A study of Homo sapiens with 64 samples.

Results

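The NRF2 oxidative stress targets examined here were NQO1, HMOX1, GCLC, GCLM, TXNRD1, SRXN1, SLC7A11, AKR1C1, OSGIN1 and ME1. They were chosen by name, with differences of these data in view. These were CFSE-labeled against unlabeled cells, time in culture in the controls, and label-retaining cells (LRCs) against non-LRCs. All are given for the members as description. The dye and LRC differences carry no p-value for a member, and p-values for time in culture carry no weight as evidence. Of the 10 genes, 9 were matched among the 54127 genes of the count files, and SRXN1, which encodes sulfiredoxin, was not matched and is not analysed here. RNA sequencing covered 64 samples of human colorectal cancer cell lines in 16 groups of 4 replicates. In 48 of them, spheroid cells of HT55, SW948 (subtype CCS1), RKO, SW48 (CCS2), DLD1 and HCT15 (CCS3) had been stained with CFSE, cultured and sorted into LRCs, which kept a high CFSE signal, and non-LRCs (labeled BULK). The other 16 were control bulk populations labeled DLD1, given CFSE or only its solvent DMSO and taken on d1 or d5 of the sample labels (the study's text gives the later time as day 6). All groups shared the nonadherent culture of an established line, and both sorted populations of a line came from stained cells.

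NRF2 (gene NFE2L2) is a transcription factor that KEAP1 holds at a low level by directing it to degradation. Electrophiles and oxidants modify KEAP1, NRF2 then accumulates, pairs with small MAF proteins and binds antioxidant response elements, which the repressor BACH1 can also occupy. Its targets make and recycle glutathione and thioredoxin, supply NADPH and detoxify quinones and carbonyls. CFSE is an amine-reactive fluorescent ester that attaches to proteins inside the cell and is diluted at each division.

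The promoters are shown because the members were grouped by a shared regulator. RefSeq promoter windows (GRCh38.p14, 250 bases before to 50 after a start site) were given for 8 of the 10 members, with 9 windows in all. The antioxidant response element core was searched as TGACNNNGC on both strands. It was present in 13.3% of all 35116 windows, in 4 of the 9 member windows, and in windows of 3 members. Each match is printed on the strand of its gene with 10 bases on each side and the core in capitals. A core that lies on the other strand appears as its reverse complement.
GCLM, chr1:93909446-93909474, minus strand: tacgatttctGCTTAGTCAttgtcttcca
ME1 upstream, chr6:83431170-83431198, minus strand: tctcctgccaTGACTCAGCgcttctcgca
ME1 after the start, chr6:83431022-83431050, minus strand: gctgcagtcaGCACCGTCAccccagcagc
TXNRD1 first window, chr12:104215670-104215698, plus strand: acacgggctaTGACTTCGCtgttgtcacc
TXNRD1 first window, chr12:104215761-104215789, plus strand: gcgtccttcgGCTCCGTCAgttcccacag
TXNRD1 second window, chr12:104286920-104286948, plus strand: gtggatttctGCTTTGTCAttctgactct
The upstream ME1 core was the only one of these 6 that overlapped an AP-1 site (TGACTCA or TGAGTCA), a 7-letter motif held by 4.95% of all windows. In the windows of NQO1, GCLC, SRXN1, AKR1C1 and OSGIN1 the TGACNNNGC core was not found, which says nothing of elements further away. The OSGIN1 window held 1 AP-1 site. HMOX1 and SLC7A11 had no window. Of 22 other NRF2 targets with a window, 7 held a core.

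Levels are given as CPM, the count of a gene scaled to the size of its library, by edgeR's TMM method over the 64 samples. Reads on genes numbered 12237225 to 20913455 per sample. The controls did not resemble sorted DLD1: all 16 were closer to sorted HCT15 samples, with r of group means from 0.957 to 0.992 against 0.906 to 0.940. Of 808 genes at least 2 log2 CPM apart between sorted DLD1 and HCT15, the controls lay nearer to HCT15 at 768. They are therefore called the libraries labeled DLD1, or the controls, and their levels are not set against sorted DLD1. Whether the control labels or the sorted DLD1 and HCT15 labels are at fault was not tested, and values of the sorted lines follow their labels. The library labeled DMSO d1 replicate 4 correlated better with the DMSO d5 group (mean r 0.986) than with its own (0.962). CFSE d1 replicate 4 was level between its own group and DMSO d1 (0.978 to each). SW948 LRC replicate 4 correlated better with SW948 non-LRCs (0.994) than with the other LRCs (0.985). HT55 non-LRC replicate 2 (0.987 to LRCs, 0.978 to the other non-LRCs), HCT15 non-LRC replicate 2 (0.987 and 0.985) and HCT15 LRC replicate 4 (0.985 and 0.988 to non-LRCs) also stood nearer to the other population, and SW48 non-LRC replicates 1 and 3 were level. Most differences of the members that rest on the 5 libraries nearer to another group are given with and without them. Values of single genes outside the members, and of time within one dye group, are given with all libraries only. Colon epithelial markers EPCAM, CDH1, KRT8, KRT18, KRT19, CDX2 and VIL1 were present in the lines other than RKO, where VIL1 did not exceed 0.876 CPM and mean CDH1 and KRT19 were 1.01 and 1.03 CPM beside KRT18 at 139, KRT8 at 95.2, CDX2 at 19.6 and EPCAM at 17.3, and VIL1 was also low in SW48 (mean 3.45 CPM). Of 9 markers of other cell types matched, the sum was 0.53 to 24.1 CPM per sample, and CD3E was at 0 in all samples. The leukocyte marker PTPRC had a mean of 15 CPM in SW48 and did not exceed 0.0674 elsewhere, and the fibroblast marker COL1A1 had its highest mean in SW948 (9.13 CPM). Of the same markers, CD14 had means of 6.83 CPM in HCT15 and 6.71 in the controls, and PDGFRB of 7.17 in DLD1.

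The controls addressed what the dye itself does. On d1, HMOX1, GCLC, GCLM, TXNRD1 and OSGIN1 were higher in CFSE-labeled than in unlabeled libraries, by 0.51 to 0.88 on the log2 scale. NQO1 was level and ME1 lay lower. On d5 all 8 members measured in the controls lay higher with CFSE, by 0.42 to 1.29, with SLC7A11 the furthest apart. Without DMSO d1 replicate 4 the d1 differences were smaller, at 0.49 ± 0.15 for HMOX1, 0.38 ± 0.14 for GCLC, 0.60 ± 0.19 for GCLM, 0.53 ± 0.18 for TXNRD1 and 0.69 ± 0.24 for OSGIN1, and NQO1 was at -0.17 ± 0.15 and ME1 at -0.33 ± 0.14. The d5 differences were then 0.43 to 1.30.

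**Figure D1:**
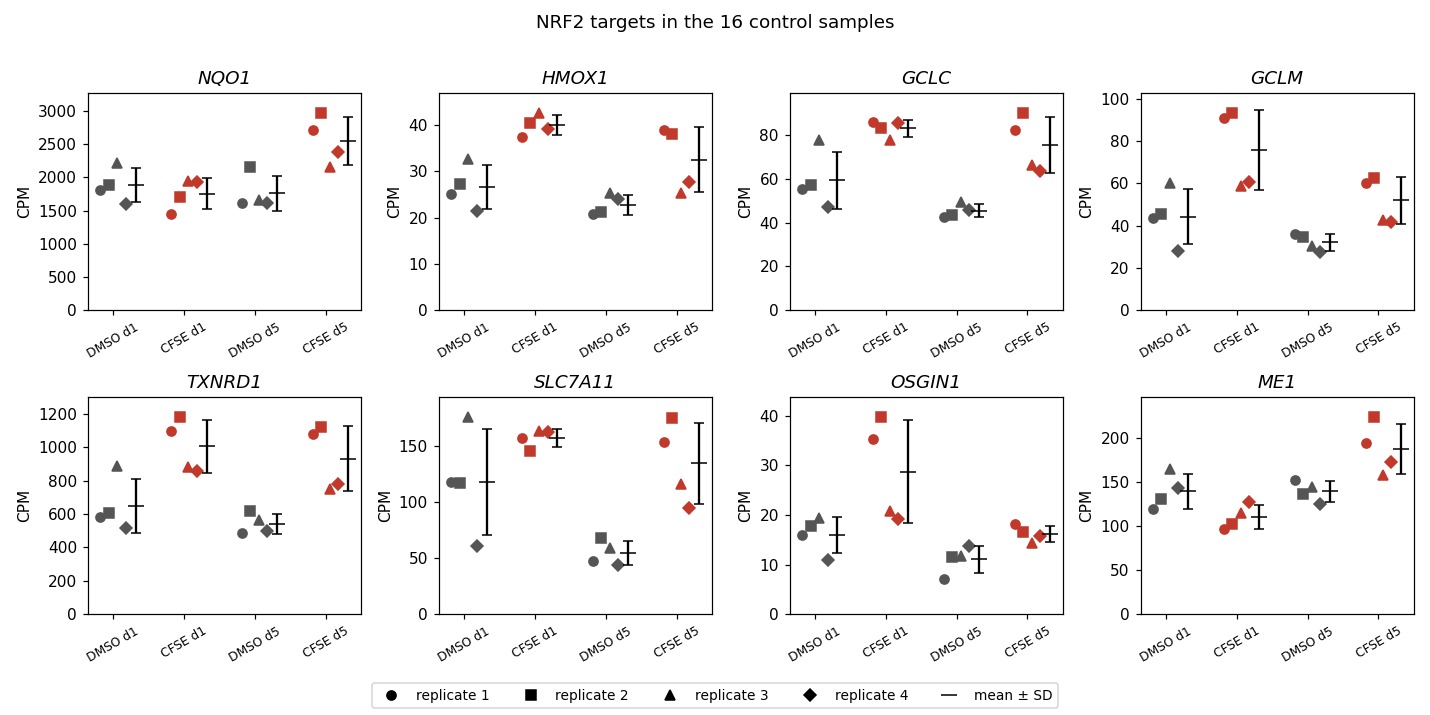
Levels in CPM (linear axes from 0) of 8 members in each control sample, with unlabeled (DMSO) samples in gray, CFSE-labeled samples in red, one symbol per replicate number and the mean ± SD in black. At d5 the CFSE samples lie above every DMSO sample for all members but NQO1, where DMSO replicate 2 (2150 CPM) lies level with the lowest CFSE sample.

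NQO1, at chromosome 16, 69740899 to 69760571 on GRCh37, encodes the quinone reductase used as a standard readout of NRF2. Its d1 level was 1810, 1890, 2220 and 1600 CPM in the 4 DMSO replicates and 1440, 1700, 1950 and 1930 with CFSE. On d5 it was 1610, 2150, 1660 and 1620 with DMSO and 2710, 2970, 2150 and 2380 with CFSE. The groups overlapped on d1 and met only at one replicate on d5. The log2 fold change was -0.07 ± 0.14 (SE, n = 4 per group) on d1 and 0.53 ± 0.14 on d5.

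HMOX1, at chromosome 22, 35776354 to 35790207, encodes heme oxygenase 1, which degrades heme and responds to heat shock and BACH1 as well as NRF2. It measured 25, 27.2, 32.6 and 21.3 CPM with DMSO against 37.5, 40.5, 42.6 and 39.2 with CFSE on d1. On d5 it measured 20.7, 21.1, 25.2 and 24 against 38.9, 38.1, 25.4 and 27.6. Neither day showed overlap, although CFSE replicates 3 and 4 on d5 lay close to the DMSO samples. The difference was 0.62 ± 0.15 on d1 and 0.50 ± 0.15 on d5.

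The members for glutathione synthesis lay higher with the dye. GCLC, at chromosome 6, 53362139 to 53481768, encodes the catalytic subunit of glutamate-cysteine ligase. On d1 it was at 55.3, 57.4, 77.9 and 47.1 CPM with DMSO and 86.1, 83.2, 77.8 and 85.6 with CFSE, and on d5 at 42.7, 43.7, 49.3 and 46 against 82.4, 90.2, 66.2 and 63.7. The groups touched on d1 through DMSO replicate 3 and were apart on d5. GCLM, at chromosome 1, 94350755 to 94375012, encodes the modifier subunit and ranged from 28 to 60 CPM with DMSO and 58.5 to 93.3 with CFSE on d1. On d5 it ranged from 27.4 to 35.9 and from 41.9 to 62.7. Log2 fold changes were 0.51 ± 0.14 and 0.72 ± 0.14 for GCLC, and 0.81 ± 0.21 and 0.68 ± 0.22 for GCLM, on d1 and d5.

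SLC7A11, at chromosome 4, 139085251 to 139163503, encodes the cystine transporter that feeds this pathway and is also a target of ATF4. Its DMSO d1 samples spread from 60.8 to 176 CPM (118, 117, 176 and 60.8), and replicate 4, the library near the d5 group, was the lowest. CFSE d1 samples held 157, 146, 164 and 163 CPM. On d5 the DMSO samples held 47.3, 68.1, 58.8 and 44.2 CPM and the CFSE samples 154, 175, 116 and 95, so the lowest labeled sample exceeded the highest unlabeled one. The difference was 0.45 ± 0.24 on d1, 0.19 ± 0.20 without DMSO d1 replicate 4, and 1.29 ± 0.24 on d5. ATF4 targets other than SLC7A11 gave 2 of 12 higher and none lower on d1, and 1 of 12 higher on d5, in both cases including SLC3A2, the partner chain of the transporter (0.85 ± 0.18 on d1, adjusted p = 0.0048; 0.77 ± 0.18 on d5, adjusted p = 0.0261, edgeR). Leaving out DMSO d1 replicate 4 gave 1 higher and 1 lower on d1 and 5 higher on d5. Over all genes 9.73% were higher on d1 and 3.11% on d5 with every library, and d5 calls rose without that library.

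TXNRD1, at chromosome 12, 104609557 to 104744085, encodes cytosolic thioredoxin reductase. On d1 it was at 580, 608, 887 and 518 CPM with DMSO and 1100, 1180, 880 and 858 with CFSE. On d5 it was at 487, 617, 564 and 498 against 1080, 1120, 747 and 782. DMSO d1 replicate 3 reached the lower CFSE samples, and the d5 groups were apart. The difference was 0.66 ± 0.18 on d1 and 0.77 ± 0.18 on d5.

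OSGIN1, at chromosome 16, 83964916 to 83999937, encodes oxidative stress induced growth inhibitor 1. CFSE d1 samples split into 35.3 and 39.7 CPM in replicates 1 and 2 and 20.7 and 19.2 CPM in replicates 3 and 4, against 16, 17.7, 19.4 and 10.9 with DMSO. On d5 the levels were 18.2, 16.6, 14.3 and 15.7 with CFSE and 7.15, 11.5, 11.7 and 13.7 with DMSO. The log2 fold change was 0.88 ± 0.24 on d1 and 0.54 ± 0.25 on d5. GCLM and TXNRD1 showed the same split of CFSE d1 replicates 1 and 2 above 3 and 4.

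ME1, at chromosome 6, 83920121 to 84140770, encodes cytosolic malic enzyme, a source of NADPH. It lay lower with CFSE on d1, at 96.9, 102, 115 and 128 CPM against 119, 131, 165 and 143 (-0.31 ± 0.13). On d5 it lay higher, at 195, 224, 158 and 173 CPM against 153, 137, 145 and 125 (0.42 ± 0.13). The change of the dye difference from d1 to d5 was 0.72 ± 0.18 for ME1, 0.60 ± 0.20 for NQO1 and 0.85 ± 0.34 for SLC7A11. For the other 5 members it was -0.34 to 0.21. Without DMSO d1 replicate 4 these changes were 0.76 ± 0.19 for ME1, 0.71 ± 0.21 for NQO1 and 1.12 ± 0.27 for SLC7A11, and -0.13 to 0.36 for the others.

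AKR1C1, at chromosome 10, 5005445 to 5025475, encodes a ketosteroid reductase that belongs to a cluster of near-identical genes, so reads can be lost between copies. It did not exceed 0.643 CPM in any control sample and was not compared there. Its paralog AKR1C2 was not tested in the controls either. AKR1C3 was lower with CFSE on d1 (-1.28 ± 0.38, adjusted p = 0.0259, edgeR), and on d5 the difference was 0.09 ± 0.32 (adjusted p = 0.894). Its DMSO d1 samples held 0.693, 1.18, 1.99 and 3.07 CPM, highest in replicate 4, the library near the d5 group. Its CFSE d1 samples held 0.512 to 0.901 CPM.

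**Figure D2:**
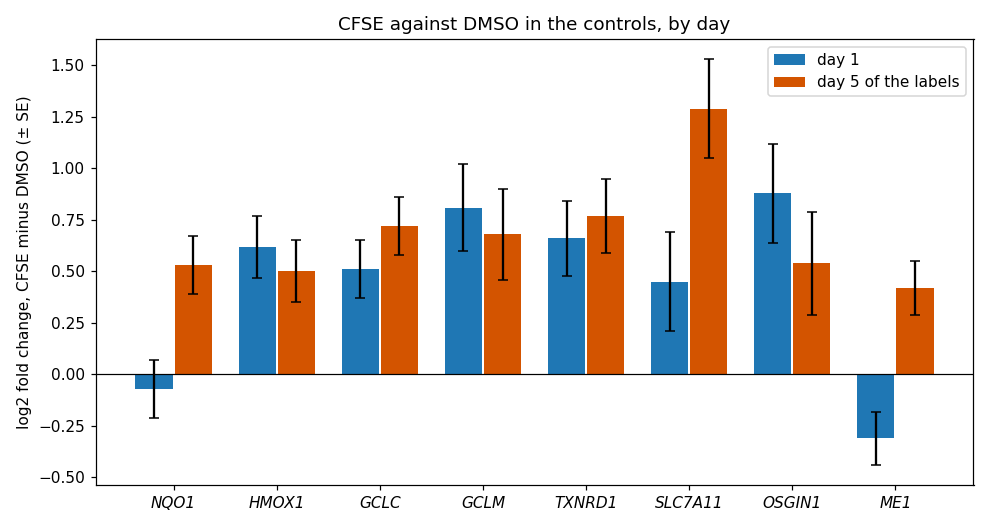
Log2 fold change of CFSE over DMSO (bars, ± SE, 4 samples per group) for 8 members on d1 and d5. NQO1 and ME1 are at or below 0 on d1 and above 0 on d5, and SLC7A11 on d5 (1.29) is the tallest bar.

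By the test used for all genes, 5 of the 8 members passed as higher on d1, where 9.73% of 14518 genes did (12% were lower), and 4 passed as higher on d5, where 3.11% did (2.03% were lower). By edgeR none of the 8 passed for the change between days, against 0.999% of genes. At an unadjusted p under 0.05 edgeR counted 3 of the 8, against 2474 of 14518 genes, and DESeq2 called 1. On CPM alone, 1 of 8 members did not overlap between groups on d1 (24.5% of genes) and 7 on d5 (19.6%). These counts rest on the contrast that chose the members and carry no weight as evidence. Without DMSO d1 replicate 4 the counts of members were 2 on d1, 7 on d5 and 2 for the change. Calls over all genes also rose on d5 and for the change in that fit (numbers in the closing section). No count over all genes is given for d1 there. The counts are therefore not read as a gain or loss of the members.

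Of 32 other known NRF2 targets tested on d1, 3 were higher with CFSE, where 9.73% of all genes were, and 5 lower, where 12% were, with a median log2 fold change of -0.03 against -0.01 over all genes. PIR, an iron-binding nuclear protein, was the most significant (-1.40 ± 0.19, adjusted p = 0.000403, edgeR), followed by the isocitrate dehydrogenase IDH1 (-1.05 ± 0.15, adjusted p = 0.000513) and the UDP-glucose dehydrogenase UGDH (0.69 ± 0.18, adjusted p = 0.0133). On d5, 4 of the 32 were higher and none lower, with a median of 0.28, where 3.11% of all genes were higher and 2.03% lower. Those 4 included the aldehyde dehydrogenase ALDH3A1 (1.37 ± 0.29, adjusted p = 0.0193) and the aldo-keto reductase AKR1B10 (1.5 ± 0.36, adjusted p = 0.0303). The dye difference was larger on d5 than on d1 for 2 of the 32, among them PIR (1.43 ± 0.26, adjusted p = 0.0223). Over all genes 0.999% differed between days in either direction. Without DMSO d1 replicate 4, 3 of the 32 were higher and 5 lower on d1, 8 were higher on d5, and 5 differed between days. Calls over all genes also rose on d5 and for the change there (numbers in the closing section).

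Among genes that control NRF2, the small MAF genes MAFK (0.99 ± 0.19, adjusted p = 0.00357, edgeR) and MAFF (1.41 ± 0.33, adjusted p = 0.00881) were the 2 of 11 that were higher with CFSE on d1. Of all genes 9.73% were higher on d1. On d5 none of the 11 passed edgeR's test, with 2 at an unadjusted p under 0.05 (3537 of 14518 over all genes), and 1 passed as lower by DESeq2. NFE2L2 differed by 0.25 ± 0.11 on d1 (adjusted p = 0.109) and 0.29 ± 0.11 on d5 (adjusted p = 0.11), KEAP1 by 0.08 ± 0.11 (adjusted p = 0.629) and 0.07 ± 0.11 (adjusted p = 0.74), and BACH1 by 0.42 ± 0.20 (adjusted p = 0.129) and 0.04 ± 0.19 (adjusted p = 0.922). BACH1 in DMSO d1 was at 30.5, 30.3, 42 and 55.7 CPM, highest in replicate 4, the library near the d5 group. In CFSE d1 it was at 64.2, 56.5, 41.6 and 45.8 CPM. The change between days was 0.05 ± 0.15 for NFE2L2 (adjusted p = 0.909), -0.01 ± 0.16 for KEAP1 (adjusted p = 0.977) and -0.38 ± 0.28 for BACH1 (adjusted p = 0.507).

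Antioxidant genes that are not classed as NRF2 targets here were lower with CFSE on d1 in 8 of 17 and higher in none, with peroxiredoxins PRDX5 (-0.71 ± 0.10, adjusted p = 0.000513, edgeR) and PRDX2 (-0.61 ± 0.12, adjusted p = 0.00365) and GPX4 (-0.43 ± 0.09, adjusted p = 0.00495) the most significant. On d5 the 1 call was catalase, CAT (-0.81 ± 0.20, adjusted p = 0.0295). Heat shock genes were higher in 5 of 9 on d1, led by the chaperone HSPH1 (0.85 ± 0.16, adjusted p = 0.00279), the cochaperone BAG3 (0.86 ± 0.17, adjusted p = 0.00405) and DNAJA1 (0.79 ± 0.18, adjusted p = 0.00632). On d5, 2 of 9 were higher, HSPH1 (0.82 ± 0.16, adjusted p = 0.0169) and HSP90AA1 (0.57 ± 0.15, adjusted p = 0.0338). Over all genes 9.73% were higher and 12% lower on d1, and 3.11% and 2.03% on d5. No member of these 2 lists or of the ATF4 targets passed edgeR's test for a change between days, where 7 of 17, 3 of 9 and 4 of 12 had an unadjusted p under 0.05. So had 2474 of all 14518 genes. DESeq2 called 4 antioxidant genes higher, 1 heat shock gene lower and no ATF4 target.

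Time in culture, averaged over the dye groups, shares no contrast with the dye comparisons. It was in view when the members were chosen, so their values and p-values here are description. Most members fell from d1 to d5 in the libraries labeled DLD1. OSGIN1 fell by 0.70 on the log2 scale (SE 0.17, adjusted p = 0.00334, edgeR, 8 samples per day), SLC7A11 by 0.69 (SE 0.17, adjusted p = 0.00341) and GCLM by 0.53 (SE 0.15, adjusted p = 0.00864). GCLC (-0.28 ± 0.10, adjusted p = 0.0255) and HMOX1 (-0.28 ± 0.11, adjusted p = 0.0371) fell less. ME1 rose (0.36 ± 0.09, adjusted p = 0.00322).

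TXNRD1 (-0.21 ± 0.13, adjusted p = 0.18) and NQO1 (0.20 ± 0.10, adjusted p = 0.101) did not pass. So 5 of 8 members fell, against 23.1% of all genes, and 1 rose, against 26.4%. These counts rest on a contrast in view when the members were chosen and carry no weight as evidence. The members' median was -0.28 against 0.04 over all genes. Without DMSO d1 replicate 4, TXNRD1 also passed as lower (-0.30 ± 0.12, adjusted p = 0.0486), OSGIN1, SLC7A11, GCLM, GCLC and HMOX1 lay at -0.82, -0.84, -0.65, -0.38 and -0.37, ME1 at 0.32 (adjusted p from 8.1e-05 to 0.0101) and NQO1 at 0.12 (adjusted p = 0.333). Without replicate 2 or replicate 3 HMOX1 did not pass, without replicate 1 or 3 GCLC did not, and without replicate 1 or 2 ME1 did not (log2 fold changes of -0.35 and -0.22, -0.34 and -0.25, and 0.22 and 0.23). Reads outside genes made up 8.96 to 14.8% on d1 and 5.19 to 8.35% on d5, and their part in the time difference was not tested.

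Taken within one dye group, the values share samples with the dye comparison and are descriptive. SLC7A11 differed by -1.11 ± 0.24 between days with DMSO and by -0.26 ± 0.24 with CFSE. ME1 differed by 0.00 ± 0.13 with DMSO and 0.72 ± 0.13 with CFSE, and NQO1 by -0.09 ± 0.14 and 0.50 ± 0.14. OSGIN1 was lower on d5 in both, by -0.54 ± 0.25 and -0.87 ± 0.24.

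**Figure D3:**
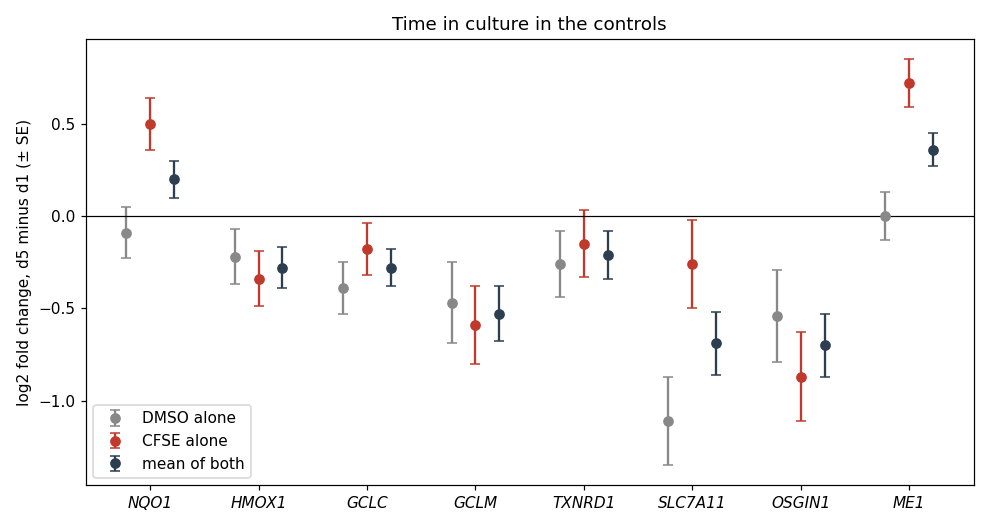
Log2 fold change from d1 to d5 (points, ± SE) of 8 members in DMSO samples alone, CFSE samples alone and the mean of both. The mean lies below 0 for 6 members and above 0 for NQO1 and ME1, and the DMSO and CFSE points stand furthest apart for SLC7A11 (-1.11 and -0.26) and ME1 (0.00 and 0.72).

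Other NRF2 targets went both ways with time. Of 32, 11 rose and 7 fell (10 and 11 without DMSO d1 replicate 4). Over all genes 26.4% rose and 23.1% fell with every library. AKR1C3 (1.81 ± 0.25, adjusted p = 7.02e-05, edgeR), PIR (0.80 ± 0.13, adjusted p = 0.000166) and IDH1 (0.77 ± 0.10, adjusted p = 5.83e-05) had the smallest p-values and rose. Other antioxidant genes rose in 11 of 17 and fell in 1, led by PRDX5 (0.70 ± 0.07, adjusted p = 1.6e-05). ATF4 targets fell in 6 of 12 and rose in 1, with the stress factor DDIT3 the most changed (-1.62 ± 0.21, adjusted p = 5.61e-05). Heat shock genes fell in 3 of 9 and rose in 1. Of the 11 control genes 3 rose and 2 fell, MAFF (-0.97 ± 0.24, adjusted p = 0.003) and MAFK (-0.66 ± 0.14, adjusted p = 0.00095). BACH1 rose (0.37 ± 0.14, adjusted p = 0.0342), and NFE2L2 (-0.02 ± 0.08, adjusted p = 0.866) and KEAP1 (0.03 ± 0.08, adjusted p = 0.759) did not pass. Colon epithelial markers rose in 5 of 7 over the same interval.

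In the sorted samples the members ranked the lines differently from gene to gene. The mean of LRCs and non-LRCs in a line is independent of the LRC contrast, and all 9 members differed between the 6 lines by this mean, as did 99.2% of 16603 genes (edgeR, adjusted p from 3.54e-40 for ME1 to 0.00484 for OSGIN1). By mean CPM, RKO was lowest for NQO1, GCLC, GCLM, SLC7A11, AKR1C1 and ME1 and highest for HMOX1. The order below follows mean CPM over the 8 samples of a line. The tests took these 8 samples as independent. Same-numbered samples deviated together in HT55, SW48, DLD1 and HCT15, so the p-values and SEs between lines can be too small.

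NQO1 had medians of 855 CPM in HCT15 (701 to 1320), 632 in HT55, 655 in SW948, 256 in SW48, 232 in DLD1 and 41 in RKO (35.9 to 51.1). HCT15 exceeded HT55 by 0.54 ± 0.11 (adjusted p = 2.88e-05, edgeR), SW948 exceeded SW48 by 1.26 ± 0.11 (adjusted p = 1e-13) and DLD1 exceeded RKO by 2.48 ± 0.12 (adjusted p = 3.83e-23). HT55 and SW948 (0.06 ± 0.11, adjusted p = 0.616) and SW48 and DLD1 (0.18 ± 0.11, adjusted p = 0.145) did not differ beyond their spread.

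HMOX1 showed the opposite extreme, with 109 CPM in RKO (80.3 to 234), 23 in HCT15, 11.9 in SW48, 10.1 in HT55, 7.95 in SW948 and 9.16 in DLD1. RKO exceeded HCT15 by 2.34 ± 0.12 (adjusted p = 2.3e-22, edgeR) and HCT15 exceeded SW48 by 1.05 ± 0.13 (adjusted p = 4.07e-10). The 3 steps below did not pass, with adjusted p from 0.203 to 0.633.

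GCLC was highest in SW48 (median 277 CPM), followed by SW948 (168), HT55 (161), DLD1 (70.7), HCT15 (43) and RKO (40). SW948 and HT55 (adjusted p = 0.489, edgeR) and HCT15 and RKO (adjusted p = 0.168) were not separated, and the other 3 steps were 0.71 to 1.20. Both unseparated steps passed without TMM, and HCT15 over RKO also passed without replicate 4 or with at least 10 counts in every sample. GCLM, its partner subunit, followed another order. It stood at 85.2 CPM in HT55 and 29.5 in SW48 (1.57 ± 0.09, adjusted p = 5.23e-20), and SW948 (27.3) and DLD1 (26.9) were level (0.00 ± 0.09, adjusted p = 0.985). The step from SW48 to SW948 did not pass, but did without replicate 3, without HT55 non-LRC replicate 2 or with at least 10 counts in every sample. HCT15 (20.5) lay 0.43 ± 0.10 below DLD1 (adjusted p = 0.000128), and RKO (16.7) 0.34 ± 0.10 below HCT15 (adjusted p = 0.00162).

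SLC7A11 spread widely within lines. HCT15 held 97.4, 112, 20.3 and 21.2 CPM in non-LRCs and 129, 141, 43.7 and 41.1 in LRCs, so replicates 1 and 2 were far above 3 and 4 in both populations. SW948 (median 83.3), HCT15 (70.5), SW48 (64.6) and HT55 (46.8) were not separated as neighbors, HT55 lay 0.64 ± 0.28 above DLD1 (27.5; adjusted p = 0.0387, edgeR) and DLD1 2.08 ± 0.32 above RKO (8.46; adjusted p = 1.39e-07). The step from HT55 to DLD1 did not pass without replicate 1, 3 or 4, or without TMM.

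TXNRD1 spanned a narrow range. HCT15 (median 479 CPM) exceeded DLD1 (270) by 0.85 ± 0.09 (adjusted p = 3.82e-11, edgeR), and no step between DLD1, SW948 (264), RKO (246), HT55 (244) and SW48 (223) passed, with adjusted p from 0.333 to 0.823. RKO over HT55 passed without TMM, and HT55 over SW48 without replicate 2. OSGIN1 was close to level, from 8.65 CPM in DLD1 to 11.7 in SW48. Its one separated step was SW48 over RKO (0.33 ± 0.13, adjusted p = 0.0206), and this step and the difference over lines (adjusted p = 0.11 and 0.0644) were lost without replicate 2 or replicate 3.

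ME1 was at medians of 135 CPM in SW948, 134 in HT55, 130 in DLD1, 103 in HCT15 and 70.7 in SW48, and at no more than 0.315 CPM, or 4 reads, in any RKO sample. DLD1 exceeded HCT15 by 0.35 ± 0.08 (adjusted p = 0.000251, edgeR) and HCT15 exceeded SW48 by 0.56 ± 0.08 (adjusted p = 6.77e-08). SW948, HT55 and DLD1 were not separated, but both of their steps passed without TMM and HT55 over DLD1 also without replicate 2. AKR1C1 was expressed in the CCS1 lines, at 17.8 to 46.8 CPM in SW948 and 4.66 to 6.86 in HT55 (a difference of 2.49 ± 0.16, adjusted p = 4.29e-18), and did not exceed 0.526 CPM in the other 4 lines, whose order among themselves is not read at so few reads. Its paralogs followed it in part: AKR1C2 had means of 17.7 and 4.70 CPM in SW948 and HT55, and AKR1C3 had 113 and 173 CPM there, 14.1 in DLD1 and 0.101 in RKO. Per kilobase of exon, mean levels in HCT15 were 324 CPM for NQO1, 72.6 for TXNRD1, 31 for ME1 and 10.4 for HMOX1, down to 1.73 for OSGIN1. In RKO the order was HMOX1 at 55, TXNRD1 at 37.5 and NQO1 at 14.1 CPM per kilobase.

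NFE2L2 itself had its highest mean in HT55 (320 CPM) and its lowest in RKO (79.3 CPM). KEAP1 ranged from 83.3 CPM in SW948 to 141 in HT55. BACH1 was highest in RKO (90.7 CPM) and lowest in SW48 (29.4 CPM).

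**Figure D4:**
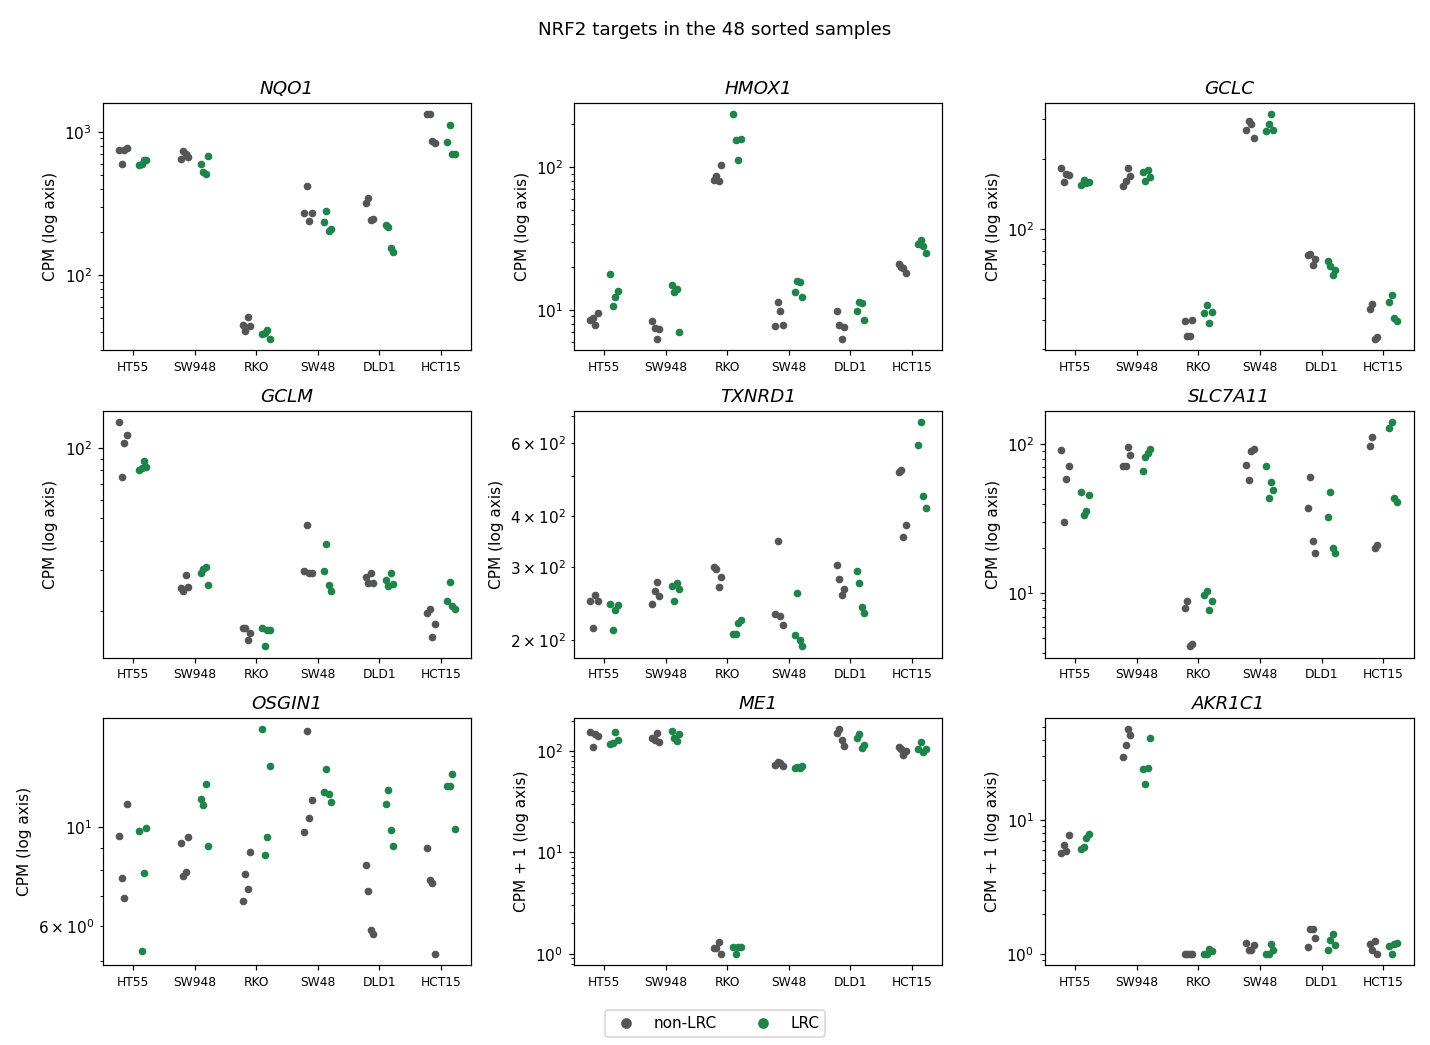
Levels of 9 members in the 48 sorted samples by line (log axes, CPM, or CPM + 1 for ME1 and AKR1C1 because of values at 0), with non-LRCs in gray and LRCs in green. RKO stands lowest for NQO1 and ME1 and highest for HMOX1, and AKR1C1 is seen in HT55 and SW948.

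LRCs were compared with non-LRCs of the same line. HMOX1 lay higher in LRCs in 6 of 6 lines and NQO1 lower in 6 of 6. OSGIN1 lay higher in SW948, RKO, DLD1 and HCT15 and near 0 in HT55 and SW48. The glutathione and thioredoxin members had no common direction. In bulk samples, fewer cells that express a gene and less RNA per cell cannot be told apart. Mitochondrial genes took 7.01 to 10.5% of reads in RKO LRCs against 4.47 to 6.57% in non-LRCs, and 13.8 to 14.2% against 9.66 to 11.3% in SW48. Their part in the values of these lines was not tested.

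In HT55, SW48, DLD1 and HCT15, where the replicate numbers pair the samples, HMOX1 was higher in LRCs in 4 of 4 pairs of each line. In RKO it was at 81.8, 87.1, 80.3 and 104 CPM in non-LRCs and 234, 156, 113 and 158 in LRCs. In HCT15 it was at 21, 20, 19.8 and 18 against 28.8, 31, 28 and 24.9, and in HT55 at 8.47, 8.80, 7.83 and 9.58 against 17.9, 10.6, 12.4 and 13.6. These groups and those of SW48 did not overlap. Those of DLD1 did, and its pair 1 was close to level, at 9.82 CPM in non-LRCs and 9.84 in LRCs.

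The HMOX1 difference was 0.88 ± 0.15 in RKO, 0.74 ± 0.20 in SW948, 0.65 ± 0.17 in HT55, 0.63 ± 0.16 in SW48, 0.52 ± 0.09 in HCT15 and 0.38 ± 0.15 in DLD1 (log2, SE, 4 per group). It was 0.67 ± 0.18 without HT55 non-LRC replicate 2, and 0.57 ± 0.09 and 0.53 ± 0.11 without HCT15 LRC replicate 4 or non-LRC replicate 2. In SW948 the LRCs measured 14.9, 13.4, 14 and 6.99 CPM and the non-LRCs 6.30 to 8.37. The one low LRC sample was replicate 4, and without it the difference was 0.94 ± 0.12.

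NQO1 was lower in LRCs in 4 of 4 pairs of each of the same lines. In DLD1 it was at 320, 345, 242 and 245 CPM in non-LRCs and 222, 217, 155 and 146 in LRCs (-0.63 ± 0.16), with no overlap. In HCT15 it was at 1320, 1320, 857 and 835 against 853, 1120, 703 and 701 (-0.35 ± 0.20), where replicates 1 and 2 again lay above 3 and 4. Other lines gave -0.37 ± 0.18 in SW48, -0.24 ± 0.09 in RKO, -0.24 ± 0.09 in SW948 (-0.32 ± 0.08 without LRC replicate 4) and -0.22 ± 0.10 in HT55 (-0.29 ± 0.09 without non-LRC replicate 2). In HCT15 it was -0.28 ± 0.21 and -0.24 ± 0.20 without LRC replicate 4 or non-LRC replicate 2. With the replicate number as a block the differences had smaller errors, at -0.22 ± 0.07 in HT55, -0.35 ± 0.07 in SW48, -0.34 ± 0.08 in HCT15 and -0.64 ± 0.04 in DLD1. Outside DLD1 the groups overlapped.

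OSGIN1 was higher in LRCs by 0.72 ± 0.17 in HCT15 (8.96, 7.60, 7.48 and 5.19 CPM against 12.4, 12.4, 13.2 and 9.91). It was higher by 0.65 ± 0.14 in DLD1 (8.24, 7.17, 5.88 and 5.75 CPM against 11.3, 12.1, 9.83 and 9.05). Neither line showed overlap. RKO gave 0.62 ± 0.18 and SW948 0.37 ± 0.13 (0.46 ± 0.12 without LRC replicate 4) with overlapping groups, and SW48 (0.02 ± 0.17) and HT55 (-0.10 ± 0.22, or -0.16 ± 0.23 without non-LRC replicate 2) were near 0. In HCT15 it was 0.79 ± 0.17 and 0.74 ± 0.19 without LRC replicate 4 or non-LRC replicate 2.

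SLC7A11 ran in different directions. It was lower in LRCs of HT55 (-0.62 ± 0.27, or -0.85 ± 0.16 without non-LRC replicate 2) and SW48 (-0.51 ± 0.17) and higher in RKO (0.48 ± 0.20). In HCT15 the value was 0.50 ± 0.60 between groups, and LRCs were higher in 4 of 4 same-numbered pairs (0.66 ± 0.10 with the block). Without HCT15 LRC replicate 4 or non-LRC replicate 2 it was 0.73 ± 0.60 and 0.94 ± 0.61. In DLD1 LRCs were lower in 4 of 4 pairs (-0.21 ± 0.37, or -0.19 ± 0.07 with the block). GCLM likewise was -0.34 ± 0.13 in HT55 and 0.32 ± 0.12 in HCT15, where its groups did not overlap, and lay between -0.19 and 0.18 in the other 4 lines. Without HT55 non-LRC replicate 2 GCLM was -0.47 ± 0.09 in HT55, without SW948 LRC replicate 4 it was 0.23 ± 0.09 in SW948, and without the HCT15 libraries 0.35 ± 0.13 and 0.37 ± 0.13. GCLC lay within -0.13 to 0.19 in all 6 lines with every library, at 0.23 ± 0.14 and 0.28 ± 0.14 in HCT15 without LRC replicate 4 or non-LRC replicate 2, at -0.14 ± 0.08 in HT55 without non-LRC replicate 2 and at 0.06 ± 0.08 in SW948 without LRC replicate 4.

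TXNRD1 was lower in RKO LRCs, at 207, 207, 220 and 223 CPM against 301, 298, 269 and 285 (-0.45 ± 0.06), without overlap. Elsewhere it lay between -0.26 in SW48 and 0.28 in HCT15 (0.37 without either of these HCT15 libraries). ME1 lay between -0.14 and 0.08 in the 5 lines that expressed it, and at -0.18 ± 0.10 without HT55 non-LRC replicate 2. AKR1C1 was at 28.8, 35.2, 46.8 and 42.2 CPM in SW948 non-LRCs and 23.1, 17.8, 23.4 and 40 in LRCs (-0.54 ± 0.21, or -0.82 ± 0.15 without LRC replicate 4), and at 0.12 ± 0.17 in HT55 (0.13 ± 0.19 without non-LRC replicate 2). Without SW948 LRC replicate 4, TXNRD1 was at 0.04 ± 0.07, SLC7A11 at -0.03 ± 0.12 and ME1 at 0.06 ± 0.09 in SW948.

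**Figure D5:**
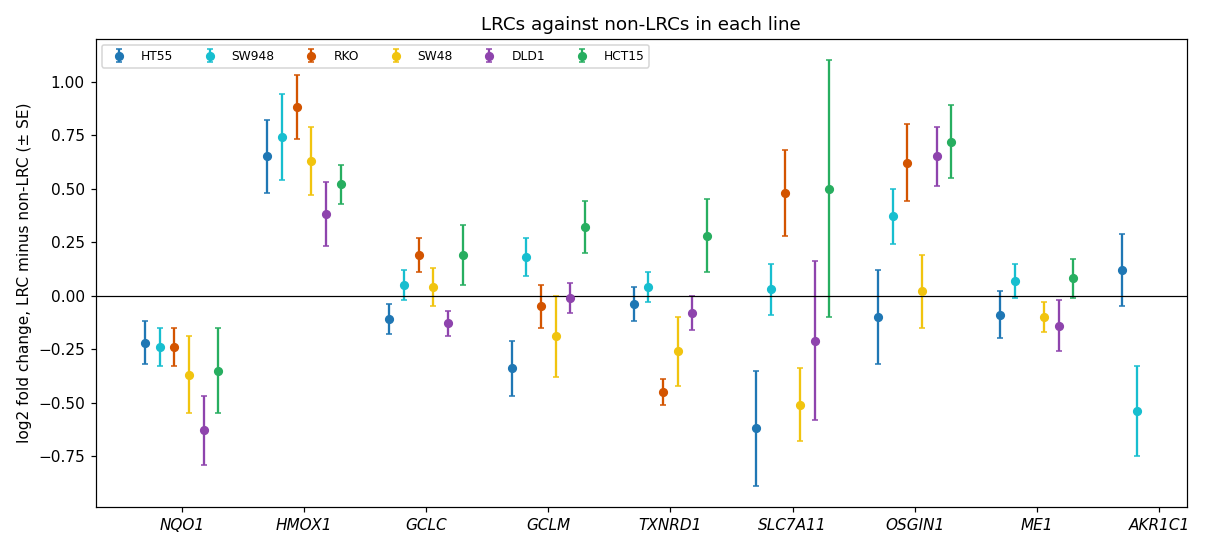
Log2 fold change of LRCs over non-LRCs (points, ± SE, 4 samples per group) for each member and line. All 6 HMOX1 points (0.38 to 0.88) lie above 0, all 6 NQO1 points (-0.63 to -0.22) lie below, and SLC7A11 points fall on both sides.

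The members' calls in these contrasts are background to their choice. By edgeR, in RKO 4 of 7 passed (41.5% of genes), in DLD1 2 of 8 (14.6%), in HCT15 1 of 8 (0.977%), in SW48 none of 8 (0.796%), and in HT55 and SW948 none of 9, where 0% of genes passed. Groups did not overlap for 2 of 7 members in RKO (36.9% of genes), 2 of 8 in DLD1 (21%), 3 of 8 in HCT15 (10.4%), 1 of 8 in SW48 (8.26%), 1 of 9 in HT55 (3.26%) and none of 9 in SW948 (4.86%). Across lines, HMOX1 (0.64 ± 0.07) and OSGIN1 (0.38 ± 0.09) were among the 12.2% of genes called higher and NQO1 (-0.35 ± 0.07) among the 10.7% called lower, and no member was among the 14.3% that edgeR called different between lines. There DESeq2 called 3 of 9, and edgeR called 1 of 9 without SW948 LRC replicate 4 or HCT15 non-LRC replicate 2, 2 of 9 without HT55 non-LRC replicate 2 or HCT15 LRC replicate 4, and 6 of 9 with the block. Calls over all genes rose too with the block and without the SW948 or HT55 library (numbers in the closing section). These counts are therefore not read as a result about the members.

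At the members' unadjusted p under 0.05, edgeR counted 4 of 9 in HT55, 4 of 9 in SW948 and 2 of 8 in SW48, and 4 of 9 for the difference between lines. Over all genes 1005 of 13391 in HT55, 2350 of 13674 in SW948 and 1728 of 13196 in SW48 had an unadjusted p under 0.05. No such count over all genes is given for the difference between lines. DESeq2 called 37 genes in HT55 and 244 in SW948. Of the members DESeq2 called none of 9 in HT55, 1 of 9 in SW948, 1 of 8 in SW48 and 2 of 8 in HCT15. Without SW948 LRC replicate 4, 1956 genes and 4 of 9 members passed in SW948. Without HT55 non-LRC replicate 2, 521 genes and 2 of 9 members passed in HT55. Without HCT15 LRC replicate 4, 233 genes and 1 of 8 members passed in HCT15, and without non-LRC replicate 2, 32 and none.

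In the 4 lines whose replicate numbers pair the samples, the block raised the calls to 2987 genes and 6 of 8 members in HCT15, 1279 and 4 of 8 in SW48, and 4591 and 6 of 8 in DLD1. In HT55 it left 0 genes and none of 9 members.

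Across the 6 lines, 10 of 33 other NRF2 targets tested were lower in LRCs, where 10.7% of all genes were, and 5 were higher, where 12.2% were. IDH1 (-0.25 ± 0.04, adjusted p = 4.64e-06, edgeR), PGD of the pentose phosphate pathway (-0.18 ± 0.03, adjusted p = 3.76e-05) and the glutathione reductase GSR (-0.18 ± 0.04, adjusted p = 0.000251) led them. The median was -0.11 against 0.01 over all genes. In RKO, where 41.5% of all genes were called, 9 of 25 fell and 5 rose, led by TALDO1 (-0.52 ± 0.08, adjusted p = 7.78e-05) and thioredoxin, TXN (-0.52 ± 0.09, adjusted p = 0.000239). In DLD1 (14.6% of all genes called) 5 of 30 fell and 5 rose, and the latter included SQSTM1, which sequesters KEAP1 (0.44 ± 0.05, adjusted p = 0.000748), and the ferritin chains FTH1 (0.44 ± 0.06, adjusted p = 0.00228) and FTL (0.42 ± 0.07, adjusted p = 0.00381).

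None of the other NRF2 targets passed in HCT15 (28 tested), SW48 (29), HT55 (30) or SW948 (33). Those with an unadjusted p under 0.05 by edgeR numbered 10, 2, 2 and 11, and DESeq2 called 4, 1, 0 and 1. With the replicate number as a block, 5 were higher and 6 lower in HCT15, and 3 lower in SW48. Without SW948 LRC replicate 4, 4 were higher and 4 lower in SW948. Calls over all genes also rose in these fits (numbers in the closing section). The LRC difference itself varied between lines for 4 of 33, among them the exporter ABCC1 (adjusted p = 0.00145), EPHX1 (adjusted p = 0.0255) and SQSTM1 (adjusted p = 0.046). Over all genes it did for 14.3%.

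Of the genes that control NRF2, MAFF (0.48 ± 0.11, adjusted p = 0.000625, edgeR), BACH1 (0.23 ± 0.06, adjusted p = 0.00199) and the kinase GSK3B (0.14 ± 0.04, adjusted p = 0.0131) were the 3 of 11 higher in LRCs across lines. NFE2L2 (0.04 ± 0.04, adjusted p = 0.418) and KEAP1 (-0.07 ± 0.04, adjusted p = 0.215) did not pass. NFE2L2 was higher in RKO LRCs (0.19 ± 0.07, adjusted p = 0.035). In DLD1 and HCT15, NFE2L2 gave -0.03 ± 0.05 (adjusted p = 0.688) and 0.18 ± 0.12 (adjusted p = 0.476). The only control gene called in DLD1 was NFE2L1 (0.21 ± 0.05, adjusted p = 0.0138), and 4 of 11 were called there with the block. RKO had 4 of 11 higher and 3 lower, where 41.5% of all genes were called in either direction. In DLD1 14.6% of all genes were called, and more with the block (number in the closing section). Across lines 12.2% of all genes were called higher.

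Other antioxidant genes were lower in LRCs in 7 of 17 across lines and higher in 2, with GPX1 the most significant (0.32 ± 0.05, adjusted p = 1.09e-05, edgeR) and higher. ATF4 targets were higher in 3 of 12, DDIT3 (0.92 ± 0.20, adjusted p = 0.000672), SESN2 (0.62 ± 0.12, adjusted p = 0.000145) and SLC3A2 (0.42 ± 0.10, adjusted p = 0.00186). In SW948, 10 of 12 were higher once LRC replicate 4 was left out, and none before (8 at an unadjusted p under 0.05, and 4 called by DESeq2). With the block, 11 of 12 were called in HCT15, 10 of them higher, and 7 of 12 were called lower in SW48. Calls over all genes also rose in these fits (numbers in the closing section), so the counts are not read as a result about ATF4 targets. Without the block edgeR called none in either line (4 and 1 at an unadjusted p under 0.05), and DESeq2 called 1 and 0. Genes with an unadjusted p under 0.05 numbered 2415 of 14017 in HCT15, 1728 of 13196 in SW48 and 2350 of 13674 in SW948. Across lines, 10.7% of all genes were called lower in LRCs and 12.2% higher. Heat shock genes were higher in 2 of 9 across lines, DNAJB1 (0.15 ± 0.04, adjusted p = 0.00817) and HSPH1 (0.12 ± 0.04, adjusted p = 0.0463).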

How the data were processed

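For each of 64 samples the file deposited by the authors holds whole-number gene counts without normalization, from 50-bp single-end reads aligned to hg19. TopHat, HTSeq and DESeq are named in the submitters' processing notes without versions. The 5 summary rows of each file were left out of library sizes. Reads outside genes made up 5.19 to 14.8%. Groups came from the sample labels, and the 4 replicates of a group differed by more than sampling noise. The study describes biological quadruplicates, and p-values measure the spread between these samples. The replicates were not evenly spaced. In CFSE d1 the mean chi-square per gene (1 means sampling noise) was 5.94 for replicates 1 and 2 and 4.09 for 3 and 4. Across these sets it was 54.2 to 70.8. CFSE d5, sorted DLD1 and sorted HCT15 split the same way, and DMSO d1 did not. The main fits took the 4 samples as independent, without a term for this split. The members and the gene lists were chosen with earlier results of these data known. Symbols and GRCh37 positions came from GENCODE release 44 lifted to GRCh37.

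Counts were tested in R 4.3.3 with edgeR 4.0.16 (TMM, quasi-likelihood, two-sided, Benjamini-Hochberg over all genes tested, threshold 0.05). A gene entered a fit when 4 or more of its samples reached 10 counts. The controls were fitted as 4 group means, each line alone, and all lines with line as covariate or as 12 group means. SE is the log2 fold change divided by the square root of F. Log2 CPM used a prior count of 2. Lists were 33 other NRF2 targets, 11 NRF2 control genes, 18 other antioxidant genes, 12 ATF4 targets, 9 heat shock genes and cell type markers. Of each list, at most the 3 genes with the smallest p among those called are named. The values of 1 list gene are not reported here. NFE2L2, KEAP1, BACH1, AKR1C2 and AKR1C3 were named in addition.

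Same-numbered LRC and non-LRC samples deviated together in HT55, SW48, DLD1 and HCT15 (every pair's r of 0.185 to 0.609 across genes), so numbers were taken as pairs there. In SW948 and RKO (-0.091 to 0.229) and the controls (-0.273 to 0.508) they were not. Alternatives were DESeq2 1.42.0, no TMM, other filters, the replicate block, a prior count of 0.5, each day or all sorted samples in 1 fit and each replicate left out. Leaving out each of 5 libraries nearer to another group was added after seeing the data. The tests were tried on simulated data.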

Additional observations from a re-analysis of the deposited data

Results flagged for a closer look

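Of 131 sets of 4 samples examined, 4 held 1 sample far from the other 3, and chance alone would mark about 1 set in 20. NQO1 in DMSO d5 replicate 2 was at 2150 CPM against 1610 to 1660. GCLM in RKO LRC replicate 2 was at 14.2 CPM against 16.7 to 17. In SW48 non-LRC replicate 2, GCLM was at 46.9 CPM against 29.1 to 29.8 and TXNRD1 at 348 CPM against 217 to 231.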

How the results depend on the processing

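Of the members' log2 fold changes in the dye and LRC contrasts, recomputed under every alternative, 1 moved by more than the replicate SD, ME1 in SW48 without TMM (-0.17). No value changed sign where it had been called. For time in culture, HMOX1 and GCLC were also lost without a filter on low counts (-0.27 for each), TXNRD1 passed without TMM (-0.33), and the other changes are given above. Counts of genes called moved more. CFSE against DMSO called 3162 genes on d1 and 1516 with each day fitted alone, and 745 on d5 but 1530 with each day alone and 1521 with DESeq2. The change between days called 145 genes, 623 with DESeq2, 85 without TMM and 454 without a filter. LRC calls in HT55 were 0, with 37 by DESeq2, 102 without a filter and 106 in 1 fit of all 48. In SW948 they were 0, with 244, 973 and 389, in SW48 105, with 361, 285 and 486, and in HCT15 137, with 531, 347 and 697. In DLD1 they were 1978, with 646 in 1 fit. Line differences fell from 16474 to 10202 when every sample needed 10 counts, since fewer genes were tested.

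With the replicate number as a block, calls became 1511 for CFSE on d5, 501 in SW948, 1279 in SW48, 4591 in DLD1, 2987 in HCT15 and 5584 for the difference between lines, and 7 other NRF2 targets were higher on d5. The block was not fitted for line levels, where the numbers are nested in lines. Same-numbered LRC and non-LRC samples therefore counted as independent there. The block moved no other count of genes by over 1.5 times.

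Leaving out 1 replicate number gave 338 to 3384 genes for CFSE on d1, 0 to 1604 on d5, 0 to 1068 for the change between days and 4351 to 7741 for time. LRC calls ranged from 0 to 808 in HT55, 0 to 940 in SW948, 3387 to 4721 in RKO, 0 to 497 in SW48, 581 to 1515 in DLD1 and 0 to 27 in HCT15. Ranges were 2243 to 2945 across lines and 522 to 2850 for the difference between lines. Without DMSO d1 replicate 4, chosen after seeing the data, d5 gave 1923 genes, the change between days 880, d5 8 higher other NRF2 targets, time 8070 genes, and 11 of these targets fell with time. Without SW948 LRC replicate 4, SW948 gave 1956, the lines together 4050 (12 other NRF2 targets lower) and the difference between lines 2994. Without HT55 non-LRC replicate 2, HT55 gave 521, the lines together 4007 and the difference between lines 3190. Without HCT15 LRC replicate 4 HCT15 gave 233, and without HCT15 non-LRC replicate 2 32.

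Of the other NRF2 targets, 0 to 3 were higher and 2 to 5 lower with CFSE on d1 without 1 replicate number, and 0 to 7 higher on d5. With time 7 to 10 rose and 4 to 10 fell, and across lines 1 to 5 were higher and 6 to 9 lower in LRCs. With each day alone, 1 was higher and 2 lower on d1 and 7 higher on d5. On d5 DESeq2 called 9, and 10 counts in every sample left 3 lower on d1. AKR1C1 outside HT55 and SW948 and ME1 in RKO had too few reads to compare.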
